A study of Drosophila melanogaster with 6 samples.

Results

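The 8 genes described here are egr, hep, bsk, Jra, kay, puc, Mmp1 and Ets21C, chosen by symbol as the c-Jun N-terminal kinase (JNK) pathway and its targets, out of 15656 genes in the deposited table. The rule names the genes and uses no measured value, although it was drawn up with earlier results of these data known. All 8 were found, and all 8 passed the filter on low values (a mean of at least 0.5 FPKM, reads scaled to gene length and library depth, over the 6 libraries), as did 13196 genes in all. RNA was taken from adult male flies aged 3 to 5 d. They were injected in the thorax with an *E. coli* suspension through a glass capillary and collected 12 h later. The 3 overexpression libraries came from Gal80ts; Tub>lncRNA-CR33942 flies, in which the ubiquitous tubulin driver expresses the long noncoding RNA, and the 3 control libraries from Gal80ts; Tub-Gal4/P{CaryP}attP40 flies, which carry the same driver over the empty landing site strain. The study's methods describe independent biological replicates. Both genotypes carry the temperature-sensitive repressor Gal80ts, grew at 18°C and were moved to 29°C for more than 24 h. Every library was thus both infected and wounded, with no unwounded or uninfected group among the 6. The comparison is therefore between the genotypes and gives no induction by the wound or by the bacteria. For every gene, the overexpression and any other difference between the strains cannot be told apart.

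In flies, JNK signalling is a kinase relay that is known for closing epithelial wounds, for stress-induced cell death, and as a side branch of the Imd pathway, where the kinase Tak1 feeds both Relish and JNK. Eiger (egr), the fly tumour necrosis factor, is a ligand that can start the relay. Hemipterous (hep) is the kinase that phosphorylates the fly JNK, Basket (bsk), and Basket phosphorylates Jra, the fly Jun, which pairs with the fly Fos, kay, to form the transcription factor AP-1. Puckered (puc) is a phosphatase that switches Basket off and is itself transcribed when JNK is active, so its RNA is a common reporter of the pathway. Mmp1, a matrix metalloproteinase that remodels the extracellular matrix at wounds, and Ets21C, an ETS-family transcription factor, are further targets. Much of the relay works by phosphorylation, which RNA levels do not record.

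The libraries held from 16894595 to 19423287 reads assigned to genes. The overexpressed RNA itself, lncRNA-CR33942, had 203, 210 (209.6) and 177 normalized counts (reads divided by 1 size factor per library) in the control libraries and 4452, 4914 and 4544 in the overexpression libraries, a log2 fold change of 4.55 (SE 0.072, adjusted p = 8.43e-13 from limma). The labels of all 6 libraries were therefore borne out by the gene they name. Markers of testis and of accessory gland, as adult males should have, were read in every library, with sums of 872 to 980.3 FPKM over 7 testis genes and of 1345 to 1654 FPKM over 4 accessory gland genes.

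None of the 8 JNK genes differed between the genotypes at an adjusted p under 0.05 in limma, against 8.42% of all genes tested. At an unadjusted p under 0.05 there was 1 of the 8, Mmp1, against 22.2% of all genes. Count models run on the reads recovered from the table also called 0 of the 8, against 8.37% of all genes in edgeR, 8.46% in limma voom and 7.41% in DESeq2. At an unadjusted p under 0.05 edgeR had 1 of the 8 (22.3% of all genes), limma voom had 1 (22.4%) and DESeq2 had 0 (14.7%). The log2 fold changes lay between -0.16 (Mmp1) and 0.12 (Jra), with a median of 0.020 beside 0.0059 over all genes, and 4 of the 8 were positive. Fold changes are given on the scale of log2(normalized count + 1), overexpressing against control. The groups did not overlap for 3 of the 8, namely hep (higher, as for 12.9% of all genes) and kay and Mmp1 (lower, as for 14.4%), where 27.3% of all genes had separate groups. With 3 libraries against 3, an exact permutation test of a single gene cannot go below a two-sided p of 0.1.

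**Figure D1:**
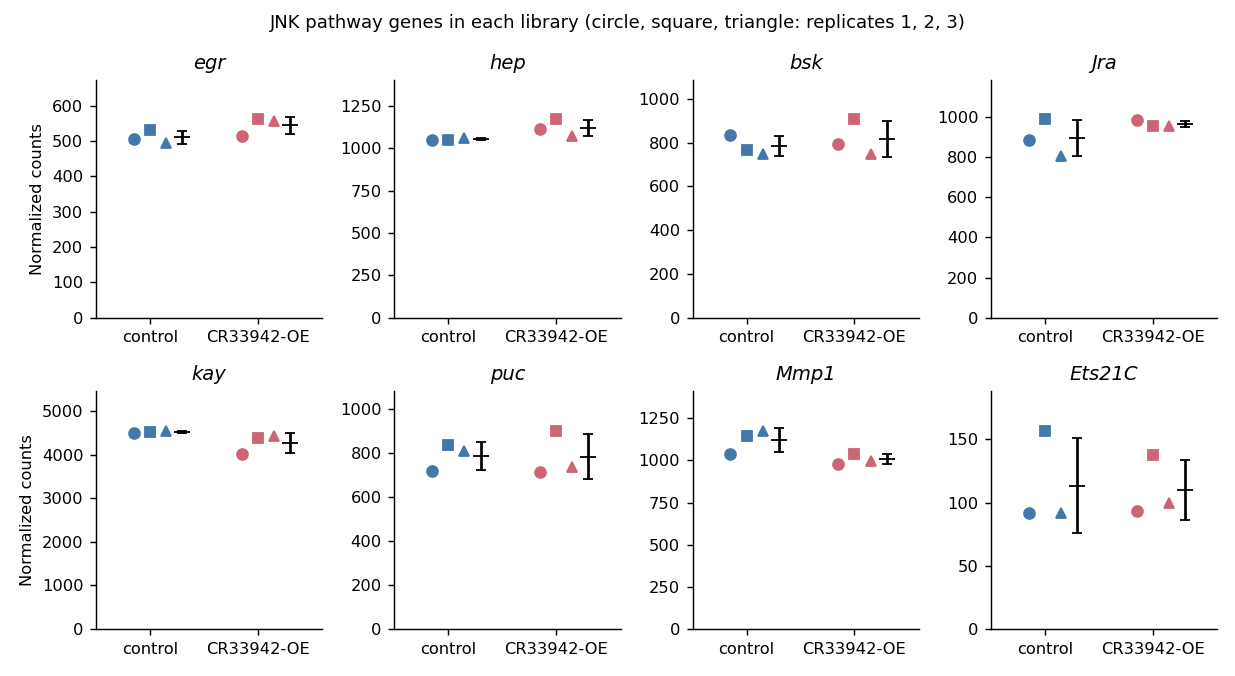
Normalized counts (y axis, from 0) of the 8 JNK pathway genes in the 3 control and 3 CR33942-OE (overexpressing) libraries, with circles, squares and triangles for replicates 1, 2 and 3 and bars for the mean and SD. Only in hep, kay and Mmp1 do the points of the groups not overlap, and in Ets21C the squares, at 157 and 137, stand above the other 4 points.

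On the FPKM scale, which uses the library total in place of the size factor, kay (31.7 to 32.0 FPKM in the controls, 29.1 to 32.0 FPKM in the overexpressing flies) and Mmp1 (11.9 to 13.2 FPKM against 11.4 to 12.1 FPKM) did overlap.

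Among the 8 genes, levels per gene length fell into steps. Jra and kay, the AP-1 pair, were the most abundant, with 31.6 ± 2.7 and 31.4 ± 1.1 FPKM (SD, n = 6 libraries), and their ranges overlapped. The kinase bsk followed at 22.1 ± 1.9 FPKM, below kay and above puc in 6 of 6 libraries. Then came puc (13.8 ± 1.4 FPKM), egr (13.6 ± 0.87 FPKM) and Mmp1 (12.2 ± 0.74 FPKM), whose neighbouring ranges overlapped, and the kinase hep at 9.74 ± 0.56 FPKM. The ranges of Mmp1 and hep did not overlap over the 6 libraries. Ets21C was the scarcest at 1.15 ± 0.29 FPKM, 8.46-fold below hep.

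**Figure D2:**
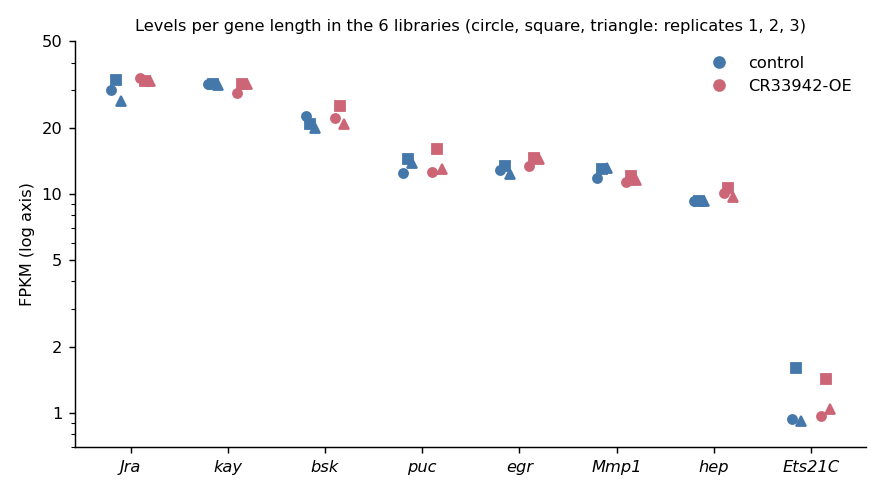
Level per gene length (FPKM, log axis) of the 8 genes in each of the 6 libraries, blue for control and red for CR33942-OE, with circles, squares and triangles for replicates 1, 2 and 3. Jra and kay lie near 31 FPKM and Ets21C near 1 FPKM, and on this scale the colours overlap in every gene but hep, where control lies at 9.27 to 9.34 FPKM and CR33942-OE at 9.75 to 10.7 FPKM.

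The ligand gene egr lies on chromosome arm 2R from 10078366 to 10084210 on the plus strand (coordinates of the deposited table, dm6 per the submitters' processing notes) and is annotated with 2 transcripts. It had 506, 531 and 495 normalized counts in the control libraries and 515, 561 and 556 in the overexpression libraries. The values overlapped, because the control library of replicate 2 lay above the overexpression library of replicate 1. In limma the log2 fold change was 0.091 (SE 0.070, 95% interval -0.060 to 0.24, adjusted p = 0.491).

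The kinase genes had slightly positive log2 fold changes, within their error. Of hep and bsk, only hep kept this sign as each library was left out. The gene hep (X chromosome, 13079205 to 13090434, minus strand, 7 annotated transcripts) had 1050.3, 1049.9 and 1061 normalized counts in the controls and 1115, 1171 and 1075 in the overexpressing flies. Every overexpression library was above every control library, and the control libraries differed by less (a coefficient of variation of 0.589%) than the 3.1% that counting alone gives at this depth. For hep the log2 fold change was 0.088 (SE 0.055, 95% interval -0.032 to 0.21, adjusted p = 0.393 from limma), and the exact permutation p was 0.1, the smallest that 3 against 3 allows.

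For bsk (2L, 10247502 to 10250501, minus strand, 3 annotated transcripts) the counts were 835, 766 and 749.9 in the controls and 794, 906 and 747 in the overexpressing flies. The highest and the lowest of the 6 values were both in overexpression libraries. Its log2 fold change was 0.055 (SE 0.077, 95% interval -0.11 to 0.22, adjusted p = 0.739 from limma), and without overexpression replicate 2 it was -0.023, so bsk had no stable direction.

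The log2 fold changes of the AP-1 genes had opposite signs, with neither past the threshold and both intervals holding 0. Jra (2R, 10096480 to 10098556, plus strand, 3 annotated transcripts) had 889, 989.7 and 809 normalized counts in the controls and 986, 958 and 958 in the overexpressing flies. The overexpression libraries lay close together, and the control libraries were spread on both sides of them. Jra differed by a log2 fold change of 0.12 (SE 0.072, 95% interval -0.041 to 0.27, adjusted p = 0.387 from limma). Its partner kay (3R, 29765995 to 29794113, plus strand, 5 annotated transcripts) had 4493, 4521 and 4553 normalized counts against 4017, 4386 and 4424. All overexpression values were below all control values, and the gap between the nearest libraries of the 2 groups was small. For kay the log2 fold change was -0.082 (SE 0.050, 95% interval -0.19 to 0.026, adjusted p = 0.372 from limma), and without overexpression replicate 1, the lowest library, it was -0.038.

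The phosphatase gene puc (3R, 8105332 to 8122294, plus strand, 2 annotated transcripts), the usual reporter of JNK activity, had nearly equal means in both genotypes. The counts were 716, 837 and 809.6 in the controls and 713, 901 and 734 in the overexpressing flies. Values of both genotypes covered the same range, with overexpression replicate 2 highest and overexpression replicate 1 lowest. The log2 fold change of puc was -0.014 (SE 0.091, 95% interval -0.21 to 0.18, adjusted p = 0.95 from limma), so that changes of its mean outside 0.864- to 1.14-fold lay outside the interval. As each library was left out in turn, the log2 fold change of puc ran from -0.12 to 0.049 on both sides of 0.

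Mmp1 showed the largest difference of the 8. This gene (2R, 24671294 to 24688184, minus strand, 10 annotated transcripts) had 1041, 1148 and 1177 normalized counts in the controls (1122 ± 71.3, SD, n = 3) and 981, 1038 and 999 in the overexpressing flies (1006 ± 29.2). Each overexpression library was below each control library, although overexpression replicate 2 and control replicate 1 were nearly equal. The log2 fold change was -0.16 (SE 0.061, 95% interval -0.29 to -0.022, unadjusted p = 0.026, adjusted p = 0.153 from limma), or 0.898-fold. The difference did not pass the threshold in any of the 19 other fits made for this gene, where the log2 fold change ran from -0.21 to -0.11 and the adjusted p from 0.101 to 0.404. Exons of Mmp1 share 284 bases with Pof, a gene on the other strand that is higher in the overexpressing flies (log2 fold change 0.17, adjusted p = 0.0377 from limma), and whether the counting used the strand of the reads is not known from the sources.

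Ets21C (2L, 544925 to 552923, minus strand, 4 annotated transcripts) had the fewest reads of the 8, between 90 and 146 per library. Its normalized counts were 91.4, 157 and 92.0 in the controls and 93.3, 137 and 100.02 in the overexpressing flies. In both genotypes replicate 2 stood above the other libraries, and the coefficients of variation, 33.2% in the controls and 21.5% in the overexpressing flies, exceeded the 9.49% and 9.46% that counting alone gives. The means were close, with a log2 fold change of -0.014 (SE 0.22, 95% interval -0.48 to 0.46, adjusted p = 0.981 from limma), but the interval still holds changes from 0.715- to 1.37-fold. Leaving out control replicate 2 gave 0.24 and leaving out overexpression replicate 2 gave -0.18. Exons of Ets21C share 1532 bases, or 28.3% of their length, with nAChRbeta3 on the other strand, which was not analysed here, so the Ets21C count is uncertain to that extent.

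**Figure D3:**
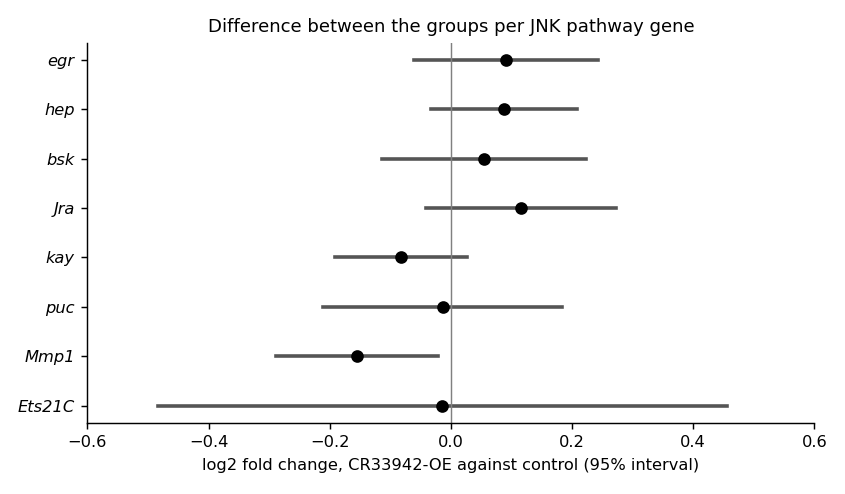
Log2 fold change of CR33942-OE against control (x axis, points) with its 95% interval from limma (lines) for the 8 genes, ordered from ligand to targets. The interval of Mmp1, -0.29 to -0.022, is the only one that does not reach 0, and that of Ets21C is the widest.

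For the 7 genes other than Ets21C, the 95% intervals, taken gene by gene, lay between 0.819-fold (the lower bound of Mmp1) and 1.21-fold (the upper bound of Jra). Changes inside these intervals are not excluded by the data, and equal levels in the genotypes were not shown. Overexpression replicate 2 was the highest library of its group for 6 of the 8, a count for which the share of all genes was not computed. In both groups replicate 2 was the highest library for puc, egr and Ets21C, 3 of the 8, beside 12.7% of all genes tested. This last pattern was noticed in the values of Ets21C, and the labels give no culture, day or batch that replicates with the same number share.

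By the maximum absolute difference of centred log2 values over the 6 libraries, the genes nearest to Ets21C were Fst (0.14), CG34043 (0.14) and CG1698 (0.19). Fst, also called Frost, is known as a gene induced after cold, and it had 3828, 6844 and 3948 normalized counts in the controls and 4491, 5880 (5879.7) and 4318 in the overexpressing flies, with the same high replicate 2. The genes nearest to puc were CG18476 (0.029), CG1607 (0.060) and stops (0.060), and 46 of the 13195 other genes stayed within 0.1 of it. The genes nearest to Mmp1 were Ext2 (0.042), the mitochondrial gene mt:Cyt-b (0.047) and Pcd (0.048), with 227 genes within 0.1. So many neighbours come with the small range of these 2 genes, 0.34 for puc and 0.26 for Mmp1 on the log2 scale.

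**Figure D4:**
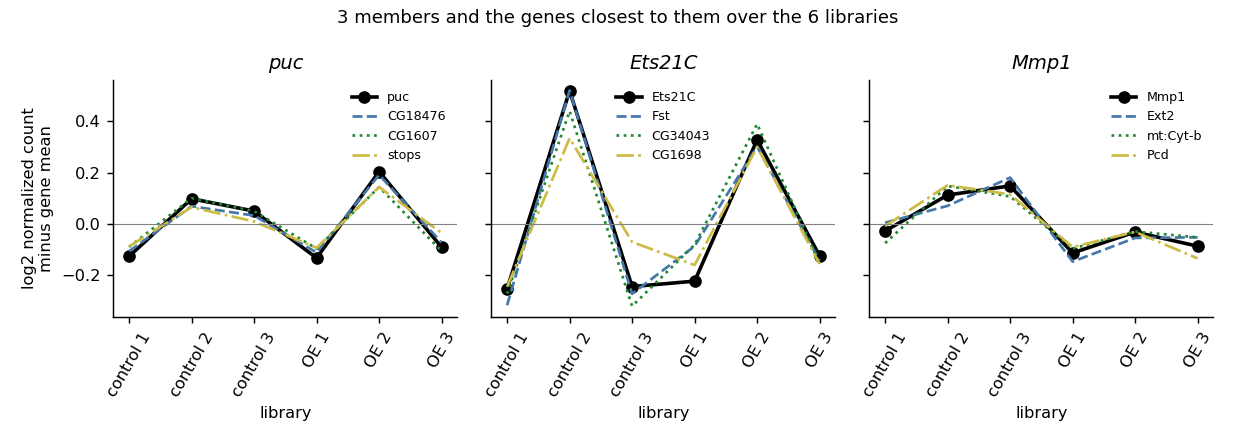
Centred log2 normalized counts (y axis) of puc, Ets21C and Mmp1 (black) and of the 3 genes nearest to each (coloured) in the 6 libraries (x axis, OE for CR33942-OE). The Ets21C panel peaks in replicate 2 of both groups, at 0.52 and 0.33, and the Mmp1 panel drops from the control to the overexpression libraries.

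Other genes of the pathway came from 3 lists, namely 26 upstream genes, 6 partner transcription factors and 19 further reported targets, of which 47 of 51 were tested. These lists were chosen with earlier results of these data known. In limma 6 of the 47 were lower in the overexpressing flies and 0 were higher, while 5.24% of all genes were called lower and 3.18% higher. Their median log2 fold change was -0.025, 0.0059 over all genes. At an unadjusted p under 0.05 there were 14 of the 47, beside 22.2% of all genes. Atf3 alone was still called without control replicate 3 or without overexpression replicate 1, and 0 of the 47 were called without the intensity trend, the term that lets the spread follow the level of a gene.

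The clearest of these calls was Atf3, a basic leucine zipper factor that can pair with Jra. It had 758, 769 and 783 normalized counts in the controls and 611, 618 and 567 in the overexpressing flies, without overlap. The log2 fold change was -0.36 (SE 0.063, adjusted p = 0.00351 from limma), and the call held as each library was left out (adjusted p from 0.00512 to 0.0239) but not without the intensity trend (0.0537). Atf3 lies on the X chromosome, where 12.2% of the genes tested were called, against 7.69% on chromosomes 2, 3 and 4, and here strain differences in X-linked genes and the overexpression itself cannot be told apart.

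Upstream of JNK, Mekk1, a kinase of the stress-activated relays, fell by 0.27 on the log2 scale (adjusted p = 0.0167 from limma), from 1066, 1097 and 1096 normalized counts to 831, 934 and 935. Pvr, the receptor of the PDGF- and VEGF-related ligands, which also serves blood cells, fell by 0.21 (adjusted p = 0.0208 from limma), from 1494, 1506 and 1469 to 1278, 1276 and 1311. Btk29A, a Tec-family tyrosine kinase, fell by 0.25 (adjusted p = 0.0309 from limma). The groups did not overlap for any of these 3. Without control replicate 1, without control replicate 3 or without overexpression replicate 1, however, 0 of the 26 upstream genes were called, with the log2 fold change of Mekk1 between -0.30 and -0.22, of Pvr between -0.22 and -0.20 and of Btk29A between -0.28 and -0.20 as each library was left out. Scaling to the library total left 1 of these calls. Gadd45, a stress-induced activator of the kinase cascade, had the largest uncalled difference, 0.50 (adjusted p = 0.123 from limma), with 467, 897 and 613 normalized counts against 797, 1090 (1090.1) and 835. Without control replicate 2, its highest control library, it was 0.75 and called (adjusted p = 0.00335 from limma). The Eiger receptor gene wgn differed by -0.16 and raw, an antagonist of JNK signalling, by -0.13, neither called (adjusted p = 0.143 and 0.193 from limma).

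Among the further targets, 15 of 19 were tested, and 2 were lower, where 5.24% of all genes were called lower. Hsp68, a stress-inducible chaperone, fell by 0.29 (adjusted p = 0.0228 from limma), from 1468, 1683 and 1613 normalized counts to 1187, 1363 and 1355. scaf, a serine protease homologue known from embryonic dorsal closure, fell by 0.27 (adjusted p = 0.0494 from limma), from 650.1, 667 and 591 to 556, 490.1 and 541. Both calls were frail. That of scaf was lost as any 1 of the 6 libraries was left out (log2 fold change -0.32 to -0.21), and that of Hsp68 was lost without control replicate 2 or 3 or overexpression replicate 1 (-0.34 to -0.22 over the 6). The cell death genes rpr and hid were not called, rpr at -0.77 on 16 to 43 reads per library (adjusted p = 0.116 from limma) and hid at 0.15 (adjusted p = 0.407 from limma). NLaz, a lipocalin that acts in metabolic stress, differed by 0.18 (adjusted p = 0.0831 from limma) and, of the alternatives at this threshold, was called higher with scaling to the library total alone (0.22, adjusted p = 0.0336). The partner factors Irbp18, crc and cnc lay between -0.057 and 0.058, and cnc turned to 0.0033 with quantile normalization and to 0.00048 with scaling to the library total.

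The sister kinase branches, p38 and ERK, were given by 6 genes. Of these, 0 passed the threshold in limma, beside 8.42% of all genes, and 0 had an unadjusted p under 0.05, beside 22.2%. Both edgeR and DESeq2 also called 0, beside 8.37% and 7.41% of all genes. The p38 genes differed by 0.13 (p38a), -0.16 (p38b) and -0.15 (p38c).

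Wound repair genes included calls in both directions. A list of 17 genes of cuticle repair, melanization, clotting and reactive oxygen production was used. In limma 10 were called, 4 higher and 6 lower, against 8.42% of all genes, 3.18% higher and 5.24% lower. The median of the absolute log2 fold change was 0.39, beside 0.085 for the 8 JNK genes and 0.12 for all genes. This list was chosen with earlier results of these data known, so its share of calls is not independent of them. The lower genes were Duox, which makes reactive oxygen at wounds (-0.62, adjusted p = 0.00234), kkv, a chitin synthase (-0.64, adjusted p = 0.00295), the formin Fhos (-0.37, adjusted p = 0.00757), the clotting factor fon (-0.28, adjusted p = 0.00827), ple, the tyrosine hydroxylase (-0.40, adjusted p = 0.0282), and the receptor kinase stit (-0.33, adjusted p = 0.0451), all from limma. Duox had 555, 415 and 489 normalized counts in the controls and 309.8, 313 and 318 in the overexpressing flies, and kkv had 287, 347 and 367 against 207, 208 and 226. In both genes the overexpression libraries were close together and below every control library.

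The higher genes of that list were Ddc, the dopa decarboxylase (0.89, adjusted p = 0.0177), the prophenoloxidases PPO2 (0.56, adjusted p = 0.0327) and PPO3 (1.05, adjusted p = 0.0491), and Sp7, a protease that activates prophenoloxidase (0.39, adjusted p = 0.0408), all from limma. Ddc had 991, 1059 and 1190 (1189.8) normalized counts in the controls and 1754, 3159 (3159.5) and 1442 in the overexpressing flies, so overexpression replicate 2 stood far above the rest, and without it the log2 fold change was 0.56 and still called. PPO1, another prophenoloxidase, was at 0.64 and not called (adjusted p = 0.0579 from limma), and mol, which helps Duox mature, and Nox, another NADPH oxidase, were at -0.34 and -0.40 (adjusted p = 0.0562 and 0.192 from limma). PPO1 was called without control replicate 1 (0.85, adjusted p = 0.0238 from limma), and mol without overexpression replicate 1 (-0.44, adjusted p = 0.0244). Only Duox, kkv, Fhos and fon kept their call as each library was left out, and 6 of the 17 were called without control replicate 1, without control replicate 3, or without overexpression replicate 2 or 3. Without the intensity trend 0 of the 17 were called.

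**Figure D5:**
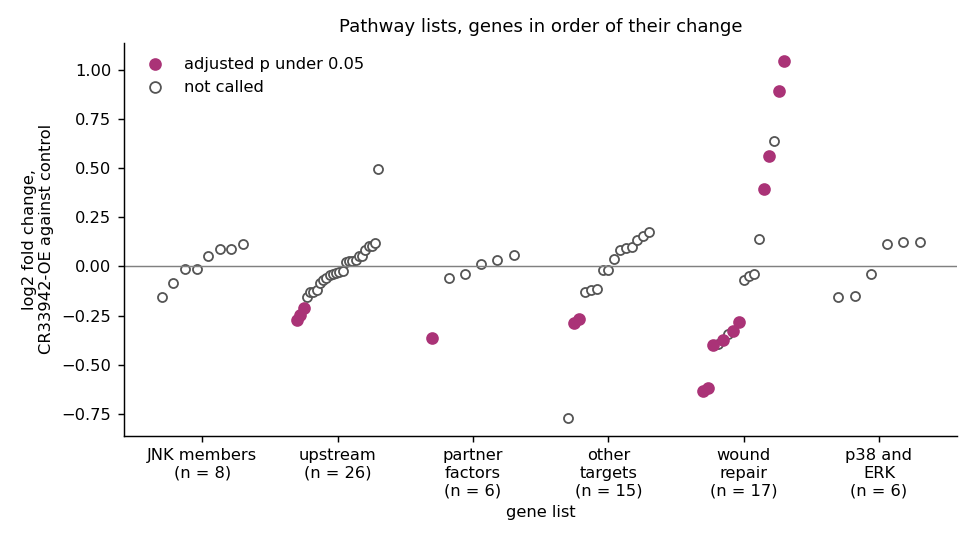
Log2 fold change of CR33942-OE against control (y axis) for the genes tested in each list (x axis), ordered by size within a list, with filled points for an adjusted p under 0.05 in limma. The 8 JNK genes lie between -0.16 and 0.12 with 0 filled points, the 3 other JNK lists have 6 filled points, all below 0, and the wound repair list has 10 on both sides.

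Markers of several cell types also differed between the genotypes. In whole flies, fewer cells of a type and less RNA per cell cannot be told apart. The summed level of the 3 crystal cell markers, 2 of which (PPO1 and PPO2) are also in the wound list, was 6.31 to 9.59 FPKM in the controls and 11.5 to 14.2 FPKM in the overexpressing flies, with PPO2 and lz called higher. The sum of 8 plasmatocyte markers was 192 to 199.6 FPKM against 167 to 181 FPKM, with 4 called lower (NimC1, Pxn, vkg and Col4a1) and Hml called higher. A sum in FPKM weighs abundant genes most, and its largest falls were in Col4a1 (mean 60.2 against 44.3 FPKM) and vkg (37.2 against 27.9 FPKM). On the log2 scale NimC1 fell most (-0.56), ahead of Col4a1 (-0.48) and vkg (-0.46). Hml rose from 29.6 to 35.3 FPKM, and eater, crq and srp were not called. These markers thus had no common direction, and the lower sum does not speak for all 8. The sum of 4 fat body markers was 219 to 252 FPKM against 168 to 223 FPKM, with apolpp and Lsp2 called lower, and that of 4 flight muscle markers was 902 to 989 FPKM against 764 to 901 FPKM, with TpnC4 and Mhc called lower. Of the 4 gut markers Jon25Biii was called lower, although their sum was higher in the overexpressing flies (5639 to 5985 FPKM) than in the controls (4758 to 5406 FPKM). Of the 4 accessory gland markers Acp62F was called lower. No marker of these lists was at 0 reads in all libraries. Their part in the differences of the JNK and wound repair lists was not tested.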

How the data were processed

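Per the labels and the submitters' processing notes, the authors aligned paired-end reads of poly(A)-selected RNA with HISAT2 2.0.5 (dm6), counted them per gene with featureCounts 1.5.0-p3 and compared the groups with DESeq2. Neither the annotation release nor the strand setting is given in these sources. The deposited values, named FPKM, are a signal, namely read counts that the authors scaled with a size factor for each library. Undoing this scaling returned whole reads for 100% of the values (tolerance 0.01). The table's columns of the authors' own fold changes, p-values and group means were not used. The positions of 15153 of 15656 genes, the 8 members included, matched the Ensembl annotation of BDGP6, from which transcripts and overlaps were taken.

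log2(normalized count + 1) was compared with limma 3.58.1 in R 4.3.3 (intensity trend, Benjamini-Hochberg adjustment over 13196 genes whose mean reached 0.5 FPKM, computed from the recovered reads and deposited gene lengths). Replicate pairs differed by more than sampling noise (chi-square per degree of freedom 5.05 to 8.99), so each library is 1 replicate. Members and lists were chosen with earlier results of these data known. Genes named are the 8 members, lncRNA-CR33942 (pncr016:2R in the table), list genes past an adjusted p of 0.05, up to 3 more per list with the largest changes, and the 3 genes nearest to puc, Ets21C and Mmp1. The list genes grim and Hsp22 were not analysed here, and upd2 and upd3 did not pass the filter. Alternatives used edgeR 4.0.16 and DESeq2 1.42.0 on recovered reads, voom, other pseudocounts, filters, scalings and weights, the replicate number as a block, and left-out libraries. Leaving out replicate 2 of both groups was chosen after the data were seen. Every fit was run on simulated data with known changes, where only the main fit had to meet set limits. Intervals are 95% and per gene.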

Additional observations from a re-analysis of the deposited data

How the results depend on the processing

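None of the 8 JNK genes was called under any of the 20 alternatives, and of their 151 log2 fold changes there 139 kept their sign and 12 changed it. With the library total as scaling, puc was at 0.027 and Ets21C at 0.026. Without replicate 2 of both groups, bsk was at -0.038, Ets21C at 0.075 and Irbp18 at -0.089. As each library was left out, bsk ran from -0.023 to 0.12, puc from -0.12 to 0.049, Ets21C from -0.18 to 0.24, Irbp18 from -0.056 to 0.21 and p38c from -0.39 to 0.077. cnc was at 0.0033 with quantile normalization and at 0.00048 with the library total. lncRNA-CR33942 ran from 4.48 to 4.60.

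Over all genes, 420 were called higher and 691 lower. These became 94 and 99 without the intensity trend, 697 higher at an adjusted p under 0.1, and 632 higher with the library total, where 55.7% of the calls were upward against 37.8%. With each library left out they ran from 201 to 393 and from 328 to 618, lowest without control replicate 1. Of the list genes, 4 were called higher and 12 lower, 0 and 0 without the intensity trend, and 1 to 3 and 5 to 10 with a library left out. Fewer samples remain in those fits. The other causes were not tested.

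Over all genes tested, the deviations of same-numbered replicates had r of -0.034, 0.052 and -0.036. Among the 8988 genes that averaged 5 FPKM or more, r was 0.030, 0.11 and 0.029. Pairs with different numbers ran there from -0.15 to 0.14. With 3 libraries per group these r values are not independent of each other, so they cannot decide whether the number marks a pairing. With the replicate block 517 genes were called higher and 846 lower, 0 of the 8 among them, and Gadd45, PPO1 and mol were called. Without a filter beyond 1 read in any library and with a mean of at least 5 FPKM the calls of the 8 did not change, though Ets21C was not tested in the latter.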

Other observations

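Of the genes for cytokines of the JAK/STAT pathway that JNK is known to induce, upd2 and upd3 were below the filter and in no test. Their values are given because of the replicate 2 pattern of Ets21C and were chosen after they had been seen. upd2 had 8, 42 and 16 reads in the control libraries and 5, 19 and 6 in the overexpression libraries, and upd3 had 9, 30 and 13 against 19, 28 and 17. In upd2 and upd3 replicate 2 was the highest library of each group. The related gene upd1 passed the filter and was not called (log2 fold change 0.14, adjusted p = 0.743 from limma). It had 80.2, 60.2 and 97.6 normalized counts in the controls and 73.5, 92.54 and 92.47 in the overexpressing flies. Replicate 2 was thus its lowest control library, so the pattern was not shared by upd1.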
